A study of Homo sapiens with 6 samples.

Results

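Guanylate-binding proteins are large GTPases of the dynamin superfamily. They hydrolyse GTP, assemble on membranes and are known for coating intracellular bacteria and vacuoles and for opening the way to pyroptosis, an inflammatory form of cell death. Their genes are classical targets of interferon-gamma and respond to type I interferons as well. The 5 genes described here, GBP1, GBP2, GBP3, GBP4 and GBP5, were found by symbol in a table of 29710 genes, and all 5 had enough reads to be among the 16515 genes tested. The family was selected on a known result from the same libraries, the change of GBP4 with SRPK2, so the comparison of the groups below is a description of these genes and not independent evidence.

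The libraries came from MDA-MB-231, a human triple-negative breast cancer cell line, profiled by strand-specific paired-end RNA sequencing. One group of 3 biological replicates overexpressed SRPK2-FLAG, a tagged kinase that phosphorylates splicing factors, and the other group of 3 carried an empty vector (NC). No drug, interferon or infection is named in the labels for either group. The SRPK2 libraries held 31140537 to 36908878 reads assigned to genes and the empty-vector libraries 33590410 to 36225361. Mitochondrial genes took 9.40% to 10.4% of the reads with SRPK2 and 9.33% to 9.82% with the empty vector. SRPK2 itself was 6.52-fold higher in the SRPK2 libraries (edgeR log2 fold change 2.71, SE 0.10). Of the defining genes of the line, VIM averaged 3427 and 3613 CPM (read counts scaled to library size) and CD44 1055 and 1064 CPM with SRPK2 and the empty vector, while the hormone receptor genes ESR1 and PGR averaged under 0.1 CPM in both groups. ERBB2 was present at 51.4 and 47.1 CPM.

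The 5 genes lie in 1 cluster, with GBP7 among them, on the minus strand of chromosome 1, from 89006666 to 89272804 (GRCh38, GENCODE 29), a span of 266.1 kb. In the order of the chromosome they are GBP3 (ENSG00000117226.12, 89006666 to 89022894), GBP1 (ENSG00000117228.11, 89052319 to 89065360), GBP2 (ENSG00000162645.13, 89106132 to 89150456), GBP4 (ENSG00000162654.9, 89181148 to 89198932) and GBP5 (ENSG00000154451.14, 89258950 to 89272804). The principal transcript of each has 11 exons. The gene identifiers are those of the deposited counts, and their version suffixes differ from those of GENCODE 29 for all members but GBP5. The coding sequences of GBP1 and GBP3 were the most alike of the 10 pairs of members, with 91.6% identical bases. GBP4 stood farthest from the other 4, at 67.3% to 69.3%, and was closer to GBP7 (86.4%) and GBP6 (80.2%).

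Promoter sequences of GBP1, GBP3 and GBP4 are shown because the RefSeq table used (GRCh38.p14) held these 3 of the 5 members. GBP4 was the one past the threshold of the main fit below, and GBP1 and GBP3 were its most abundant relatives. Each line runs 5′ to 3′ on the minus strand from 250 bases before the RefSeq transcript start to 50 bases after it. Capitals mark matches to the interferon-stimulated response element, searched on both strands as GAAA, then NN for any bases, then GAAA, and to the gamma-activated site, searched as TTCNNNGAA, which reads the same on both strands. The windows are chr1:89065159-89065458 for GBP1, chr1:89022817-89023116 for GBP3 and chr1:89198893-89199192 for GBP4.
GBP1: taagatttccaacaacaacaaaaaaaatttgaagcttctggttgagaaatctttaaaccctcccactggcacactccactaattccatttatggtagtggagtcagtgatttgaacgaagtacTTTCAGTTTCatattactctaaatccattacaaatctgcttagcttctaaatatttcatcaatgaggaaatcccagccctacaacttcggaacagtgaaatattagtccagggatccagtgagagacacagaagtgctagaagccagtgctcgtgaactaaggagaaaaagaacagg
GBP3: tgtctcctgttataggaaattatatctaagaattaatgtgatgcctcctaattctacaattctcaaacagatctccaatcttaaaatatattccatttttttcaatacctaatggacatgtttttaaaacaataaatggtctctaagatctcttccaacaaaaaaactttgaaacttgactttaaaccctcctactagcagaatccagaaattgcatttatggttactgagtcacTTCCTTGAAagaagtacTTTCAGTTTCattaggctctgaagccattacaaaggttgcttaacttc
GBP4: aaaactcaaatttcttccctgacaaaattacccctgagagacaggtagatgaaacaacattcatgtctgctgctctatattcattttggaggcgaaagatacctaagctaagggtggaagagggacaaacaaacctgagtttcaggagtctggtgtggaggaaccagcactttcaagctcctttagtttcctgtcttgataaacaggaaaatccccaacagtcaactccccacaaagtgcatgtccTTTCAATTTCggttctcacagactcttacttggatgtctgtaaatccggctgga
Each of the 3 windows held 1 match to the response element, which 3.57% of the 35116 promoters in the table hold. In GBP1 it was TTTCAGTTTC from position -127 to -118 relative to the start, in GBP3 the same letters from 3 to 12, and in GBP4 TTTCAATTTC from -4 to 6. The gamma-activated site was matched in GBP3 alone, by TTCCTTGAA from -15 to -7, and 7.66% of all promoters hold it. No match overlapped another. The windows of GBP6 and GBP7 held neither motif. A match to these letters is a description of the sequence, and binding of a factor was not measured.

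All members were expressed, at widely different levels. Levels of different genes are compared in the deposited FPKM values (fragments scaled to gene length and library size). GBP3, an antiviral family member, was the most abundant, with 29.4, 31.3 and 31.8 FPKM in the SRPK2 libraries and 26.3, 26.5 and 27.0 FPKM in the empty-vector libraries. GBP1, the best studied member, which binds bacterial lipopolysaccharide, followed with 14.4, 15.2 and 16.0 FPKM with SRPK2 and 12.2, 12.8 and 13.2 FPKM with the empty vector. GBP2, a prenylated protein that inhibits the protease furin, had 5.30, 4.95 and 5.41 FPKM with SRPK2 and 4.72, 4.67 and 4.4 FPKM with the empty vector. The order GBP3, GBP1, GBP2 held in each library, and the ranges of these 3 genes did not overlap within either group.

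GBP4, a less studied member, had 5.53, 5.30 and 6.51 FPKM with SRPK2 and 3.47, 3.40 and 3.82 FPKM with the empty vector. GBP5, known to promote assembly of the NLRP3 inflammasome and to inhibit furin, was the least abundant, with 0.36, 0.35 and 0.48 FPKM with SRPK2 and 0.31, 0.26 and 0.28 FPKM with the empty vector. GBP2 and GBP4 could not be ordered in the SRPK2 libraries, where their FPKM ranges overlapped, while in the empty-vector libraries GBP2 was above GBP4. That neighbouring pair depended on the length used. The gene lengths implied by the deposited counts and FPKM values were 6776 bases for GBP4 but 7972 for GBP2 and 9015 for GBP5, against principal transcripts of 6127, 2220 and 2011 bases. Per kilobase of principal transcript GBP2 was above GBP4 in both groups, at 18.5 ± 0.63 against 6.29 ± 0.56 CPM per kb with SRPK2 and at 16.7 ± 0.90 against 3.98 ± 0.18 CPM per kb with the empty vector (SD, n = 3 each).

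**Figure D1:**
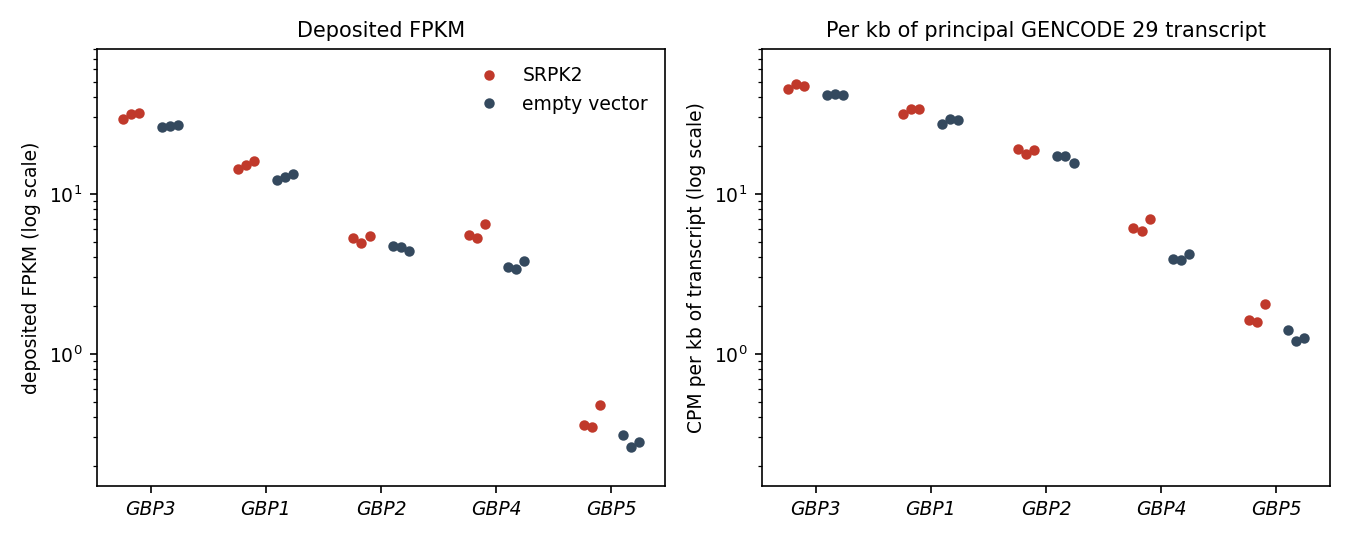
Level of the 5 genes in each library on 2 length scales, both on log axes, with deposited FPKM on the left and CPM per kb of the principal GENCODE 29 transcript on the right. Points are libraries, SRPK2 in red and left of the empty vector in dark blue. GBP3 is highest and GBP5 lowest on both scales, and the gap between GBP2 and GBP4 is wider on the right.

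GBP4 was the member that differed most between the groups, and the only one of the 5 that passed the threshold in the main fit. Scaled to library size it stood at 37.3, 35.9 and 42.5 CPM in the SRPK2 libraries (1168, 1257 and 1629 reads) and at 23.9, 23.6 and 25.7 CPM in the empty-vector libraries (839, 768 and 940 reads). The lowest SRPK2 library was 39.9% above the highest empty-vector library. The means were 38.6 ± 3.46 and 24.4 ± 1.12 CPM (SD, n = 3 each), and GBP4 rose 1.58-fold on the linear scale. The log2 difference was 0.66 with an SE of 0.07, and by the quasi-likelihood test of edgeR the p-value adjusted over all tested genes by Benjamini-Hochberg was 0.00167. By unadjusted p it was the gene at rank 4 of 16515. With any 1 library left out its edgeR adjusted p lay between 0.000163 and 0.0245. On log2 of the deposited FPKM plus 1 with no filter on low values, limma gave 0.57 and an adjusted p of 0.17.

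GBP1 stood at 96.1, 102 and 104 CPM with SRPK2 and at 83.0, 88.5 and 88.3 CPM with the empty vector. The groups did not overlap, but the gap between them was narrow, 8.60% from the highest empty-vector library to the lowest SRPK2 library. The log2 fold change was 0.22 (SE 0.05, edgeR adjusted p = 0.113), with means of 101 ± 3.98 and 86.6 ± 3.12 CPM (SD, n = 3 each).

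GBP3 had 138, 148 and 145 CPM with SRPK2 and 126, 128 and 127 CPM with the empty vector. Its empty-vector libraries were the closest together of any member, with a coefficient of variation of 0.939%, less than the counting error of 1.50% for its mean read number. The log2 fold change was 0.18 (SE 0.05, edgeR adjusted p = 0.147).

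GBP2 had 42.1, 39.4 and 41.5 CPM with SRPK2 and 38.2, 38.2 and 34.7 CPM with the empty vector. The groups were separated by 3.21%, the narrowest gap of the 5. Its log2 fold change was the smallest of the family, 0.15 (SE 0.06, edgeR adjusted p = 0.236).

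GBP5 rested on few reads, 102, 111 and 159 with SRPK2 and 100, 78 and 92 with the empty vector. Scaled to library size these were 3.25, 3.17 and 4.15 CPM with SRPK2 and 2.84, 2.40 and 2.51 CPM with the empty vector. SRPK2 replicate 3 lay well above the other two of its group. The coefficients of variation, 15.3% and 8.89%, compare with counting errors of 8.98% and 10.5% for the mean read numbers, which cover counting error alone. The log2 fold change was 0.45 (SE 0.14, edgeR adjusted p = 0.186). Without SRPK2 replicate 2, GBP1 and GBP5 passed the threshold (edgeR adjusted p = 0.0432 and 0.0475). Without any other 1 library they did not, nor did GBP2 and GBP3 in any of the 6 such fits. With the replicate number as a block, GBP1, GBP2, GBP3 and GBP5 passed (edgeR adjusted p = 1.7e-06, 0.0101, 1.5e-05 and 0.0134). That fit called 3898 genes over the whole table.

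**Figure D2:**
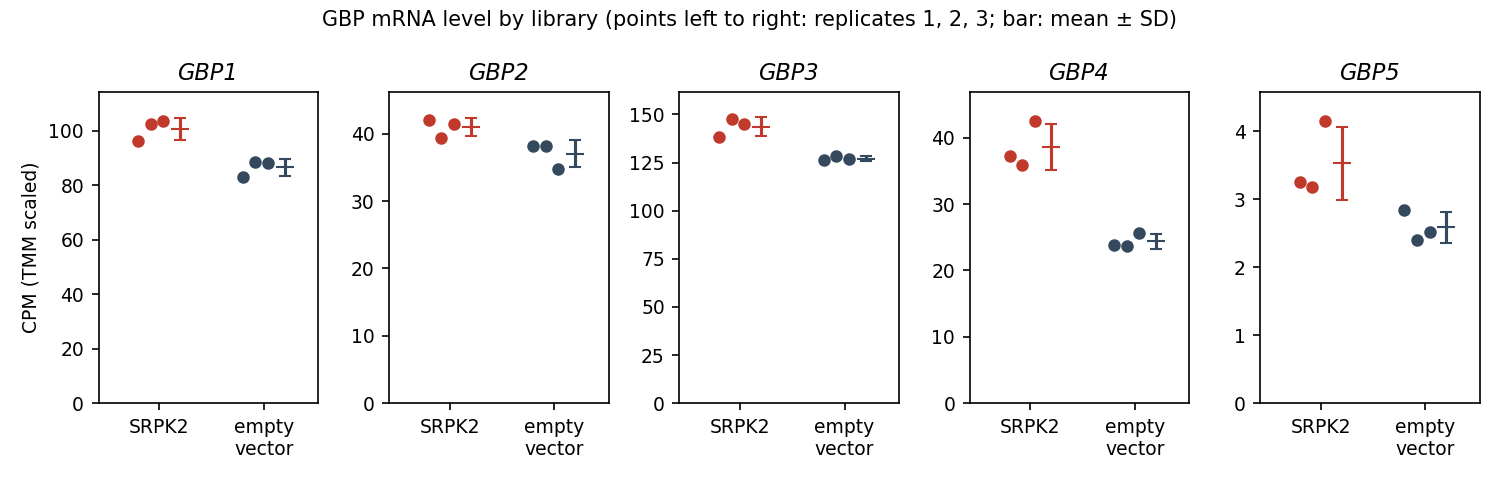
CPM of each gene in the 3 SRPK2 libraries (red, left) and the 3 empty-vector libraries (dark blue, right), with the mean and SD beside the points and each axis starting at 0. All SRPK2 points lie above all empty-vector points in each panel, and the separation is widest for GBP4.

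In all, 1 of the 5 genes rose and 0 fell at an edgeR adjusted p under 0.05 in the main fit. Over all tested genes 0.454% were called, 0.381% as rises and 0.0727% as falls, or 63 and 12 genes. Falls outnumbered rises in edgeR with no filter on low counts (390 rises and 607 falls) and without SRPK2 replicate 2 (551 and 852). Every SRPK2 library was above every empty-vector library for 5 of the 5 genes, as it was for 11.5% of all tested genes, while the opposite separation was seen for 8.69%. At an unadjusted p under 0.05 there were 17.2% of all genes and 5 of the 5 members. Because the family was picked with this contrast known, these shares are given only for scale. Permuting the libraries of each member exactly, two-sided, gave p = 0.1 in all 5 cases, the smallest value possible with 3 against 3 libraries. The count of called genes was itself unstable, 75 with all libraries, 1403 without SRPK2 replicate 2 and 27 to 46 without any other 1 library. GBP1, GBP2, GBP3 and GBP4 had a positive log2 fold change under each of 17 alternative settings, and GBP5 under the 14 in which it was tested.

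The summed level of the 5 genes was 57.4 ± 2.63 FPKM with SRPK2 and 47.8 ± 0.90 FPKM with the empty vector (SD, n = 3 each). GBP4 made up 10.1% ± 0.77 of that sum with SRPK2 and 7.45% ± 0.35 with the empty vector, and the shares of GBP1 were 26.4% ± 0.28 and 26.6% ± 0.67 (SD, n = 3 each). Shares depend on the gene lengths: in CPM per kb of principal transcript, a scale added after seeing the data, GBP4 made up 5.90% ± 0.44 with SRPK2 and 4.33% ± 0.23 with the empty vector (SD, n = 3 each). The share of GBP3 on the FPKM scale was 53.7% ± 0.97 with SRPK2 and 55.7% ± 0.30 with the empty vector. Within libraries, the ratio of GBP4 to GBP1 in CPM was 0.388, 0.351 and 0.410 with SRPK2 and 0.287, 0.267 and 0.291 with the empty vector. The ratio of GBP4 to GBP3 was 0.269, 0.243 and 0.293 with SRPK2 and 0.189, 0.184 and 0.203 with the empty vector. Both ratios were higher in each SRPK2 library than in any empty-vector library. The ratio of GBP4 to GBP5 was 11.5, 11.3 and 10.3 with SRPK2 and 8.39, 9.85 and 10.2 with the empty vector, so the groups nearly met.

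Across the 6 libraries the genes closest to GBP4 were TNFSF15, EGLN2, LRRC37A4P, DDX60 and TRANK1. Likeness was the root mean square difference between 2 genes' log2 CPM deviations from their own mean, compared with 13759 other genes of at least 1 CPM, and it was 0.0764 to 0.0860 for these 5. DDX60, the most abundant of them, averaged 83.1 CPM with SRPK2 and 58.6 CPM with the empty vector (log2 fold change 0.51). GBP5 was at rank 62 by likeness to GBP4, at 0.149, and GBP1, GBP3 and GBP2 were at ranks 665, 1237 and 2015. GBP1 and GBP3 lay close to each other, with a difference of 0.0356, GBP3 at rank 14 for GBP1 and GBP1 at rank 29 for GBP3. The genes closest to GBP1 were TGFBR3, RP1-151F17.2, MSMO1, PNISR and MAL2, at 0.0260 to 0.0293, to GBP2 TNKS, SAP130, MT-ND5, PDLIM7 and RPS6KC1, at 0.0210 to 0.0236, and to GBP3 ELOVL7, PTK6, ZNF710 and CHD6, at 0.0222 to 0.0254. For GBP5 they were NOMO2, RP5-1171I10.8, LRCH4, NOMO3 and PI4KAP2, at 0.0457 to 0.0658. A gene that varies little is close to many others on this measure, so the ranks describe these 6 libraries only.

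Genes on either side of the cluster did not pass the threshold in the main fit. Of 9 flanking genes 0 were called by the main edgeR fit, DESeq2 or limma, and 0 had an unadjusted p under 0.05 in the main fit. The edgeR fits with the replicate number as a block called 1. The median log2 fold change was 0.04, with a range from -0.09 to 0.15, beside a median of 0.00 over all tested genes. KYAT3, which encodes kynurenine aminotransferase 3 and lies next to GBP3, had 0.01 (SE 0.06), and LRRC8B, a volume-regulated anion channel subunit beyond the other end, had -0.09 (SE 0.09). PKN2, a protein kinase gene, had the highest value of the 9 at 0.15 (SE 0.07, edgeR adjusted p = 0.293), and LRRC8D, another channel subunit, had 0.05 (SE 0.05). Beyond GBP5, on the plus strand, GBP6 had 13, 14 and 17 reads with SRPK2 and 11, 9 and 8 with the empty vector, too few for a narrow estimate (log2 difference 0.64, SE 0.31, edgeR adjusted p = 0.310). The pseudogene GBP1P1, farther along on that strand, had 16, 9 and 13 reads with SRPK2 and 9, 15 and 9 with the empty vector, and these overlapped. GBP7, which overlaps GBP2 on the same strand, had no row in the deposited counts by symbol or gene identifier, so its expression could not be described. An antisense gene that overlaps the 5′ end of GBP4 (RP4-620F22.3 in the deposited table) had at most 3 reads in a library.

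**Figure D3:**
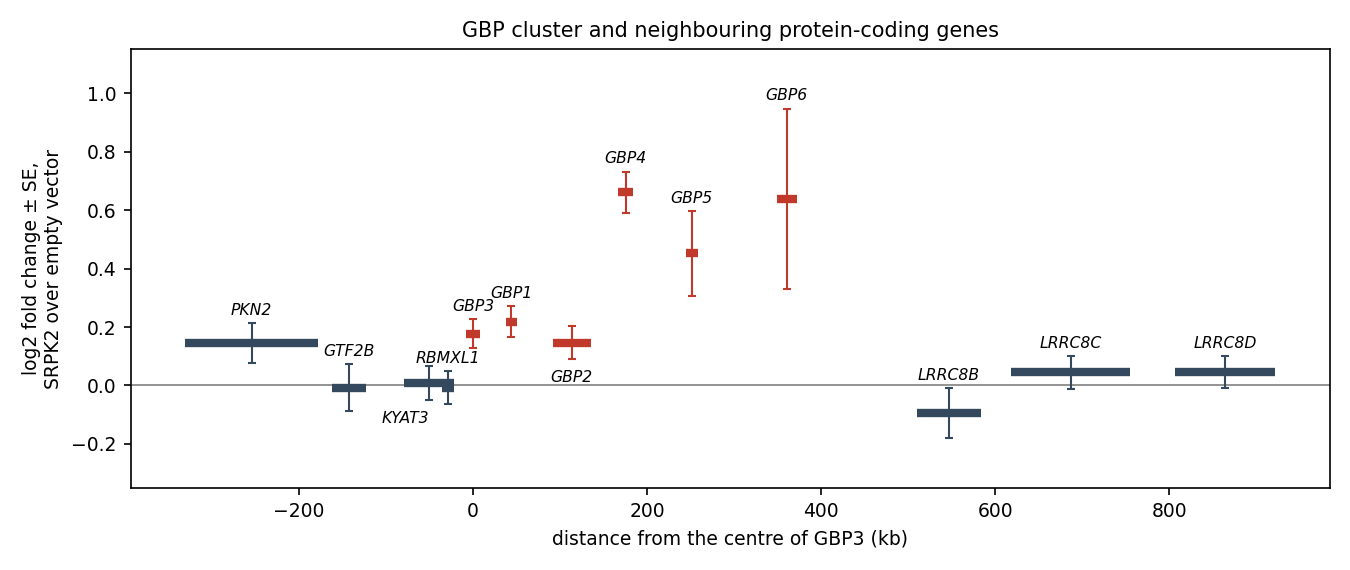
Log2 fold change with its SE, SRPK2 over empty vector, for GBP genes (red) and flanking protein-coding genes (dark blue) against distance in kb from the centre of GBP3. Thick bars span each gene. GBP4 stands at 0.66, GBP6 at 0.64 with a wide error, GBP1, GBP2 and GBP3 between 0.15 and 0.22, and the flanking genes shown between -0.09 and 0.15. RP11-302M6.4, which overlaps LRRC8C and LRRC8D, had at most 22 reads (-0.24, SE 0.43) and is not drawn.

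Exact matches between the principal transcript of each member and transcripts of other GBP genes were counted in windows of 3 lengths. Of the 50-base windows of the principal transcripts, 13.3% of GBP1's, 4.14% of GBP3's, 3.09% of GBP2's and 0.313% of GBP4's occur in a transcript of another GBP gene or of GBP1P1, and 0 of GBP5's do. At 100 bases the share was 1.87% for GBP1, with GBP1P1, and 0 for the other members, and at 150 bases it was 0 for all 5. The share for GBP4 is over a transcript of 6127 bases, of which 1920 are coding. Windows with mismatches were not counted. The sources used here give neither the read length nor the counter's rule for reads with several matches. Sharing of reads between these genes was therefore not tested.

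The 15 tested interferon-gamma signalling genes include receptors, transcription factors and the negative regulators SOCS1, SOCS3 and PTPN2. In the main edgeR fit, DESeq2 and limma 0 of them passed the threshold, and 3 had an unadjusted p under 0.05 in the main fit. Other edgeR fits called up to 6 of the 15. Positive values were seen for 13 of them, around a median log2 difference of 0.11. STAT3, a transcription factor activated by cytokine receptors, averaged 123 CPM with SRPK2 and 114 CPM with the empty vector (log2 difference 0.11, SE 0.06, edgeR adjusted p = 0.342). IRF1, which binds the promoters of GBP genes, had 0.15 (SE 0.05, edgeR adjusted p = 0.191). IRF1 was chosen after its value was seen.

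Of 17 tested interferon-gamma targets other than GBP genes 2 rose and 0 fell, with a median of 0.08 and 10 of 17 values positive. Falls were called in some other fits, with 6 rises and 3 falls in edgeR with no filter on low counts, 5 and 3 without SRPK2 replicate 2, and 4 and 1 in DESeq2. The chemokines CXCL10 and CXCL11 were those that rose, CXCL10 by 0.73 on the log2 scale (SE 0.13, edgeR adjusted p = 0.0305) and CXCL11 by 0.56 (SE 0.09, edgeR adjusted p = 0.0187). CXCL10 missed the threshold without empty-vector replicate 1 or 3 or SRPK2 replicate 1, and CXCL11 without empty-vector replicate 1 or 3 (edgeR adjusted p 0.0887 to 0.198). GBP4's value of 0.66 was exceeded by 1 of the 17, and those of GBP1, GBP2 and GBP3 by 7.

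Of 28 type I interferon targets 16 rose and 0 fell, the median was 0.43 and 27 values were positive. This list was assembled with the rise of such genes in these libraries known, so its count is not independent evidence of a direction. OAS1, which makes the activator of the nuclease RNase L, was the highest at a log2 difference of 0.81 (SE 0.09, edgeR adjusted p = 0.00198). RSAD2, the antiviral enzyme viperin, had 0.58 (SE 0.08) and XAF1, a pro-apoptotic factor, 0.56 (SE 0.08), both at an edgeR adjusted p of 0.00450. RSAD2 missed the threshold without empty-vector replicate 1 (edgeR adjusted p = 0.0604). Of the 28 values 1 was above GBP4's and 12 above GBP5's, while 23 were above GBP1's and 25 above each of GBP2's and GBP3's.

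Among 7 tested relatives of the family, which include GBP6, MX1, a dynamin-like antiviral GTPase, rose by 0.52 on the log2 scale (SE 0.07, edgeR adjusted p = 0.00357), and the list's median was 0.11. MX2, its paralogue, had 0.47 (SE 0.10, edgeR adjusted p = 0.0766), and passed without SRPK2 replicate 2 (0.0200). The atlastins ATL1, ATL2 and ATL3, membrane-fusing GTPases of the endoplasmic reticulum, had values between -0.03 and 0.11, and none passed. MX2 and the atlastins were chosen after their values were seen.

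Genes whose products modify or act with GBP proteins showed 1 call in the main fit. Of 8 prenylation enzymes and partner proteins, PIM1, a kinase that GBP1 binds, rose by 0.28 (SE 0.05, edgeR adjusted p = 0.0378), with a list median of -0.03. PIM1 passed with SRPK2 replicate 2 left out and missed the threshold with any other 1 library left out (edgeR adjusted p 0.0702 to 0.211). Of 10 inflammasome and pyroptosis genes 0 were called by the main edgeR fit, DESeq2 or limma. In the main fit 4 had an unadjusted p under 0.05, and the median was -0.03. Other edgeR fits called up to 4 of the 10. CASP4, the lipopolysaccharide-sensing caspase that acts with GBP1, had -0.04 (SE 0.07, edgeR adjusted p = 0.780). IL18, a cytokine released in pyroptosis, had -0.18 (SE 0.06, edgeR adjusted p = 0.183), and passed without SRPK2 replicate 2 (edgeR adjusted p = 0.0370).

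**Figure D4:**
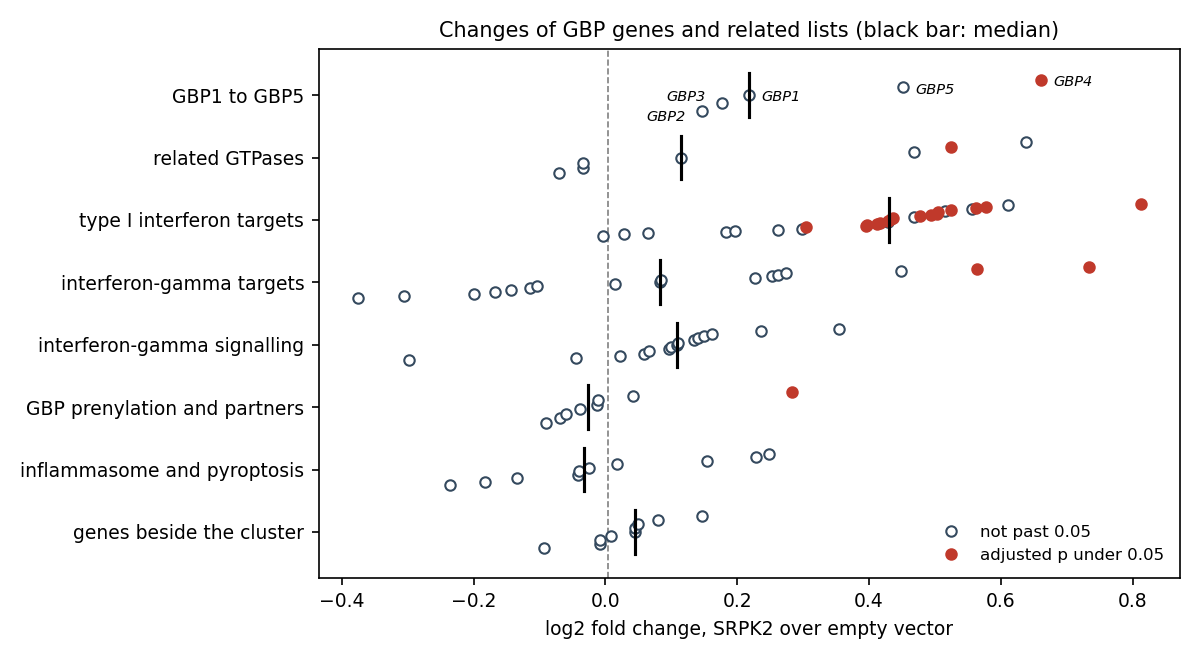
Log2 fold changes of the 5 genes and of 7 lists of related genes, SRPK2 over empty vector, 1 point per tested gene, filled red where the edgeR adjusted p was under 0.05. Black bars are list medians and the dashed line the median of all tested genes. GBP4 lies near the upper end of the type I interferon targets, whose median was 0.43, and GBP1, GBP2 and GBP3 lie at 0.15 to 0.22.

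GBP genes are also high in leukocytes and endothelium, and in bulk RNA fewer cells of a type and less RNA per cell cannot be told apart. Leukocyte markers summed to 11.9 to 14.1 CPM with SRPK2 and 13.5 to 14.7 CPM with the empty vector, 0 of 3 tested passed in edgeR (0 at an unadjusted p under 0.05), and all 3 had lower means with SRPK2. CD14, a monocyte surface protein, averaged 5.57 CPM with SRPK2 and 5.93 CPM with the empty vector, and CD68, a macrophage lysosomal protein, 3.62 and 4.05 CPM. PTPRC, which encodes the pan-leukocyte protein CD45, was too low to be tested, with 9 reads or fewer per library. Endothelial markers summed to 38.4 to 43.2 CPM with SRPK2 and 32.5 to 34.4 CPM with the empty vector. Most of that was ROBO4, a guidance receptor, which rose by 0.32 (SE 0.06, edgeR adjusted p = 0.0341). ROBO4 missed the threshold when any 1 library but SRPK2 replicate 2 was left out (0.0599 to 0.179). It was the 1 of 3 tested endothelial markers that passed. PECAM1 was lower with SRPK2 (-0.15, SE 0.17, edgeR adjusted p = 0.664) and KDR higher (0.23, SE 0.13, edgeR adjusted p = 0.374). VWF averaged below 0.1 CPM in both groups. Fibroblast markers summed to between 12 and 13 CPM with SRPK2 and 9.23 to 9.97 CPM with the empty vector. In edgeR 0 of 5 passed the threshold and 3 had an unadjusted p under 0.05, beside 17.2% of all tested genes. All 5 had higher means with SRPK2, with a median log2 fold change of 0.35. Rows were found for 7 of 10 leukocyte, 5 of 6 endothelial and 5 of 5 fibroblast markers. Each of the 29710 deposited genes had a read in some library, so having a row does not set a marker apart. The part of these transcripts in the GBP values was not tested.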

How the data were processed

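Gene counts of 6 libraries, 3 with SRPK2-FLAG and 3 with an empty vector, were grouped by their titles. Per the submitters' processing notes, bcl2fastq, FastQC, HISAT2 and the build GRCh38 were used. The sources used here name no versions, no counter, no strand setting and no annotation release. The authors deposited whole-number counts per gene (29710 genes) and FPKM values rounded to 2 decimals (29256 genes). FPKM depend on the authors' gene lengths.

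The main test was that of edgeR 4.0.16, run on the counts under R 4.3.3 (TMM, filterByExpr, glmQLFit and glmQLFTest, two-sided, group as the only term), with Benjamini-Hochberg adjustment over 16515 genes at a threshold of 0.05. These genes held 99.9% of the reads. Each SE was derived from the fold change and its F statistic. CPM were TMM scaled. The series' design text calls the replicates biological. Named genes were the 5 members, SRPK2, up to 3 called genes of a list or its 2 most abundant, and the 5 genes closest to each member. Others were chosen after their values were seen. Of the genes this rule names, 2 are not reported here. The members and lists were chosen with earlier results of these data known.

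Coordinates, transcript lengths and coding identity (Biopython 1.88, global alignment) came from GENCODE 29, promoters from RefSeq. Alternatives were RLE factors, library size alone, no filter, DESeq2 1.42.0, a floor of 5 on mean CPM, limma 3.58.1 on log2 FPKM plus 1 or 0.1, the replicate number as a block, a length correction (loess, span 0.3) and leaving out each library. The edgeR script was tested on simulated counts.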

Additional observations from a re-analysis of the deposited data

How the results depend on the processing

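GBP1 to GBP5 kept a positive log2 fold change under every alternative in which they were tested. GBP4 stayed past the threshold in 16 of 17, with values from 0.57 to 0.71, and missed it in limma on log2 of FPKM plus 1 with no filter (0.57). GBP5 was not tested with a mean CPM of at least 5 or a mean FPKM of at least 0.5, so those settings gave it no value. SRPK2 stayed past the threshold in 17 of 17. With no filter on low counts, edgeR called GBP1 (0.22) and GBP5 (0.45).

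The replicate numbers were not taken as pairs, since same-numbered libraries of the groups had correlated deviations of 0.084, 0.23 and 0.171 and not all were over 0.1. Each library did correlate best with its own number, a hint from the data and not from the design. Libraries of different numbers had values from -0.165 to 0. Whether GBP1, GBP2, GBP3 and GBP5 passed the threshold depended on this choice. The replicate block made GBP1 (0.22), GBP2 (0.15), GBP3 (0.18) and GBP5 (0.45) pass, and with the length correction as well GBP1 (0.18), GBP3 (0.17) and GBP5 (0.40). The block called 3898 genes (1752 rises and 2146 falls) and 3315 with the length correction (1127 and 2188). In the order related GTPases, interferon-gamma signalling, interferon-gamma targets, inflammasome genes and flanking genes, the block called 2, 5, 15, 4 and 1, the 15 being 9 rises and 6 falls. With the length correction these were 4, 6, 12, 2 and 1, beside 26 type I targets and 2 prenylation and partner genes.

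Genes called over the whole table numbered 75, against 997 with no filter (390 rises and 607 falls), 132 with DESeq2 (86 and 46) and 18 in limma on FPKM plus 1 with no filter. That limma fit called 0 related GTPases, 0 interferon-gamma targets, 0 prenylation and partner genes and 2 type I targets. Related GTPases called numbered 2 with library size alone and with no filter. Interferon-gamma signalling had 1 with no filter. Interferon-gamma targets had 4 with library size alone and with the length correction, 9 with no filter (6 rises and 3 falls), 1 with a mean CPM of at least 5 and 5 with DESeq2 (4 and 1).

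Leaving out 1 library gave GBP1 0.19 to 0.25, GBP2 0.10 to 0.17, GBP3 0.16 to 0.20, GBP4 0.58 to 0.71 and GBP5 0.31 to 0.53. Genes called ranged from 27 to 1403, related GTPases from 1 to 2, interferon-gamma signalling from 0 to 1, interferon-gamma targets from 0 to 8, prenylation and partner genes from 0 to 1 and inflammasome genes from 0 to 1. The cause of these shifts was not tested. GBP5's 78 to 159 reads limit its precision.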

Other observations

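Class II antigen presentation genes among the interferon-gamma targets were looked at after their values were seen. HLA-DRA averaged 30.8 CPM with SRPK2 and 38.0 CPM with the empty vector (log2 fold change -0.31, SE 0.08, edgeR adjusted p = 0.116), HLA-DRB1 6.11 and 7.93 CPM (-0.38, SE 0.10, edgeR adjusted p = 0.131) and HLA-DPA1 19.3 and 21.7 CPM (-0.17, SE 0.06, edgeR adjusted p = 0.226). None of these 3 passed the edgeR threshold with all libraries, and the groups did not overlap. Every SRPK2 library was likewise below every empty-vector library for 8.69% of all tested genes. Without SRPK2 replicate 2, HLA-DRA and HLA-DRB1 passed (edgeR adjusted p = 0.0327 and 0.0440). CD74, the class II invariant chain, averaged 189 CPM with SRPK2 and 203 CPM with the empty vector (-0.10, SE 0.06, edgeR adjusted p = 0.356), and its groups overlapped. CIITA, the transcription factor that drives these genes, averaged 8.88 CPM with SRPK2 and 8.53 CPM with the empty vector (0.06, SE 0.08).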
